A study of Homo sapiens with 3 samples.

Results

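Metallothioneins are small, cysteine-rich proteins that hold zinc, copper and other metal ions, and this account follows the 10 human metallothionein genes named on the arrays: MT1B, MT1E, MT1F, MT1G, MT1H, MT1M, MT1X, MT2A, MT3 and MT4. They were chosen by gene symbol, out of 14884 named genes, because an earlier look at the same arrays had found MT1G, MT1F and MT1X at the head of the genes that differed between the WDR5 siRNAs. Each gene was read by 1 probe set, 10 of 53617 in all. The values that chose the family are therefore given as a description, and nothing rests on their being large.

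The cells were BE(2)-C, an established human neuroblastoma line of the peripheral nervous system with an amplified MYCN gene, and the 3 groups shared that line, its serum-containing medium and a 40 hour siRNA treatment. The first group received WDR5 siRNA-1, the second WDR5 siRNA-2 and the third a control siRNA. WDR5 is a scaffold subunit of the complexes that methylate lysine 4 of histone H3. Each group was 1 array of total RNA from 1 line, read on the HuGene-2_0-st platform. No value has a replicate error, no test of a difference was possible, and every difference is between single arrays. With 1 array a group, precision is limited by that number.

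In human cells, MT1 and MT2 genes are switched on when free zinc, copper or cadmium rises. The zinc-finger factor MTF1 then binds short metal response elements before their start sites, and glucocorticoids and oxidative stress can also raise them. MT2A is the single human MT2 gene, the MT1 genes are close copies of each other, MT3 is best known from the brain and MT4 from stratified epithelium. The 10 genes lie in 1 cluster on chromosome 16, and in the RefSeq table of GRCh38.p14 the 19 genes from MT4 to MT1X also include MT1A, which was not analysed here, several pseudogenes and 3 uncharacterised loci. Because the copies are so alike, a probe made for 1 of them can read another, and levels are compared below only within a gene.

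The metal response elements are the DNA through which the family answers metals, so they are shown before the values. RefSeq start sites (GRCh38.p14) were matched by symbol for 5 of the 10 genes: MT1B, MT1H, MT1X, MT2A and MT4. MT1E, MT1F, MT1G, MT1M and MT3 were not matched. The element core was searched as TGCACNC or TGCGCNC on both strands in the 250 bases before each start site. The windows of MT2A and MT1X, which differed between the arrays, and of MT1H, which did not reach 1.5-fold, follow from 5′ to 3′ on the plus strand, with each core in capitals (a core on the other strand appears as its reverse complement). The MT2A window is chr16:56608334-56608583, the MT1X window chr16:56682220-56682469 and the MT1H window chr16:56669564-56669813.

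MT2A: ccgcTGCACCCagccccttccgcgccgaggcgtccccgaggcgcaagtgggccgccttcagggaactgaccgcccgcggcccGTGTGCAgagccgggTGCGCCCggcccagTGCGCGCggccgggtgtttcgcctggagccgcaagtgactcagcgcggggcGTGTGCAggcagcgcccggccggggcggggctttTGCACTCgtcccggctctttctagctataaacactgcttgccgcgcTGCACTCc

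MT1X: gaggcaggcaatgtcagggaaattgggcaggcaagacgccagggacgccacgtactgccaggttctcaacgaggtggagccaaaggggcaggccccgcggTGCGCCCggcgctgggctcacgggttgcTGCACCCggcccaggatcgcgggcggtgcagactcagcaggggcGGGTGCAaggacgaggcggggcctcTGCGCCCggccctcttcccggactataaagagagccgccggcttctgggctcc

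MT1H: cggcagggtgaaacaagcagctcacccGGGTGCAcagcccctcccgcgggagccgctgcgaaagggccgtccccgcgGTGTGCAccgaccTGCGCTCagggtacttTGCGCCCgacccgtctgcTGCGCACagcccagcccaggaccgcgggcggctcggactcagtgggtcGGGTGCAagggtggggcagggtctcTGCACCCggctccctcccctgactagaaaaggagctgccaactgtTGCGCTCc

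The MT2A window held 7 cores, the MT1X window 4 and the MT1H window 8, while the windows of MT1B and MT4 held 3 each. No core overlapped another in these 5 windows. Of all 35116 such windows in the RefSeq promoter table, 24.8% held at least 1 core and 1.58% at least 3. A core on the strand of the gene began at position -53, counted back from the start site, in MT1X, MT1H and MT1B and at position -54 in MT2A. On the other strand, MT1X and MT1H shared a core at position -78 and MT1B had its own at -79. The TATA box motif TATAAA, present in 6.80% of windows, began at position -30 in MT1X and MT1B and at -29 in MT2A and MT4, and was not matched in MT1H. These matches are letters in a window and not measured binding sites. Of these 5 genes MT1H had the most cores, while MT2A and MT1X differed more between the arrays, as given below. MT1H did not exceed the highest of the array's background rows, 9.26, on any array, so its transcript may not have been detected. MT1F and MT1G had no window. Whether the number of cores goes with the size of the differences was not tested.

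**Figure D1:**
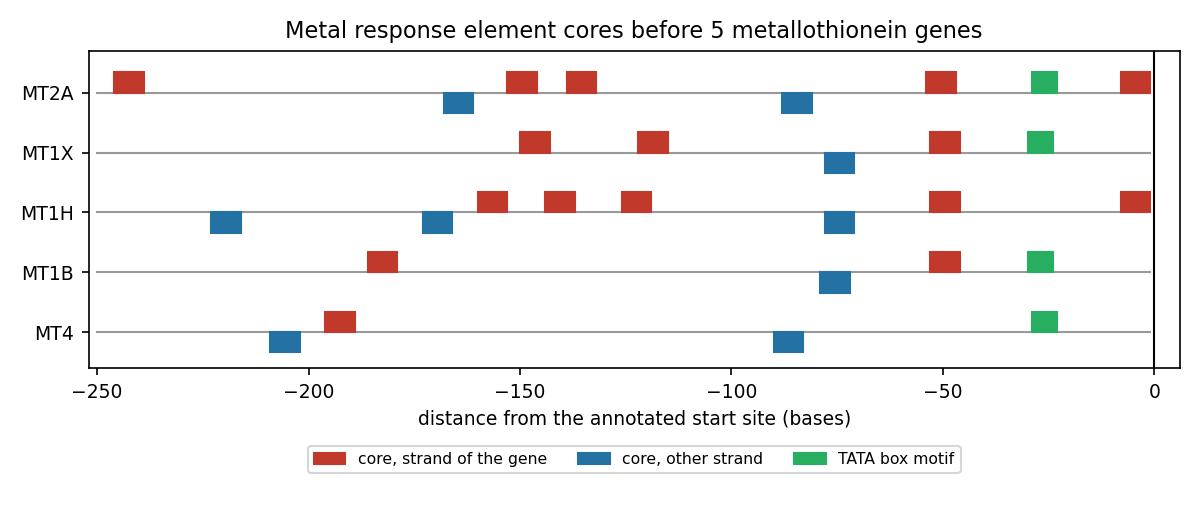
Positions of metal response element cores in the 250 bases before the RefSeq start site of 5 metallothionein genes; the horizontal axis is the distance from the start in bases. Red blocks above the line are cores on the strand of the gene, blue blocks below it are cores on the other strand and green blocks are TATAAA; MT2A holds 7 cores, MT1X 4, MT1H 8, and MT1B and MT4 hold 3 each.

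The arrays were close to each other in scale, with medians over all probe sets of 5.79 for siRNA-1, 5.79 for siRNA-2 and 5.81 for control, so the deposited values were used as they stood. They were read as log2 from their range, since no scale is stated, and every fold below rests on that reading. WDR5 itself had log2 levels that tied at 7.90 on both WDR5 siRNA arrays, against 9.46 with control siRNA, which is 33.9% of control with each. The tied level lay under the highest background row, 9.26, so the size of this fall is uncertain. Of the line's 7 measured adrenergic markers, 5 were above the highest background row, 9.26, on every array, among them HAND2 (11.58 with siRNA-1, 11.25 with siRNA-2 and 11.60 with control). PHOX2A was above it on some arrays, and TH, the gene of the enzyme that starts noradrenaline synthesis, read 7.29 on each array, below it. The markers S100B, SOX10, DCN and VWF, of Schwann cells, fibroblasts and endothelium, had the same value on every array. The values of S100B and VWF, 6.83 and 5.89, also stood on every array for the other genes ADRB3 and AKAP4, in that order. Of the 9 measured markers of other cell types, LUM (lumican, of fibroblasts) was 2.87-fold above control for siRNA-1 and 1.97-fold for siRNA-2. LUM stood at 10.40 with siRNA-1 and 9.86 with siRNA-2, against 8.88 with control siRNA, the control level alone under the highest background row. PECAM1 (of endothelium) was 1.503-fold and 1.78-fold above control in that order, at log2 levels of 5.12 or less. The other 7 stayed within 1.5-fold of control, and the part of these markers in the metallothionein differences was not tested. Exact ties between arrays were common (62.9% of named genes had a value repeated on another array), and 3 of the metallothioneins had such a tie. In 34.5% of named genes all 3 arrays had the same value. A tie is therefore not read as an unchanged level, in these markers or in the metallothioneins.

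Of the 10 genes, 4 had a siRNA-1 level at least 1.5-fold above the siRNA-2 level and 0 lay below it by as much. Over all 14884 named genes, 2.63% were higher and 2.80% lower by that rule; since this contrast chose the family, nothing is read from the comparison. In all 4 the control array lay between the others: MT1G, MT1F, MT1X and MT2A were highest with siRNA-1, intermediate with control siRNA and lowest with siRNA-2. The other 6 genes spanned at most 0.42 on the log2 scale over the 3 arrays. In bulk RNA of this kind, fewer cells with a transcript and less transcript per cell cannot be told apart.

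MT1G (Entrez gene 4495) differed most. Its log2 level was 10.44 with siRNA-1 and 5.36 with siRNA-2, against 7.36 with control siRNA. The siRNA-1 array was thus far above the control array and the siRNA-2 array below it, with no pair of arrays close together. The log2 difference was 5.08 for siRNA-1 over siRNA-2 (33.8-fold), 3.08 for siRNA-1 over control (8.45-fold) and -2.001 for siRNA-2 over control (4.00-fold lower). The siRNA-2 and control levels both lay within the range of the array's 23 background rows, 1.75 to 9.26, and the siRNA-2 level also under the median level of all named genes, 6.78, so the size of every MT1G fold is uncertain. With values under 6.78 raised to that level, the siRNA-1 level of MT1G was 12.6-fold above the siRNA-2 level, and siRNA-2 was 1.49-fold below control, just short of 1.5-fold.

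MT1F (Entrez gene 4494), another metal-inducible MT1 gene, stood at 10.43 with siRNA-1 and 7.35 with siRNA-2, against 9.10 with control siRNA. The siRNA-1 array was again the highest and the siRNA-2 array the lowest. These levels are 2.51-fold above control for siRNA-1 and 3.35-fold below it for siRNA-2, and 8.41-fold apart between the WDR5 siRNAs. All of them were above 6.78, while the siRNA-1 level alone exceeded the highest background row, so the size of these folds is uncertain too.

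MT1X (Entrez gene 4501) was measured at 11.82 with siRNA-1 and 9.52 with siRNA-2, against 10.87 with control siRNA. Here every array was above the highest background row, 9.26, but the siRNA-2 level only by a little. The size of the folds that use the siRNA-2 level is therefore less certain than that of siRNA-1 over control. siRNA-1 was 1.93-fold above control, siRNA-2 was 2.55-fold below control and the WDR5 siRNAs were 4.92-fold apart.

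MT2A (Entrez gene 4502), the MT2 gene of the human genome, followed the same order on a smaller scale. Its levels were 10.40 with siRNA-1 and 9.31 with siRNA-2, against 9.87 with control siRNA. All were above the highest background row, 9.26, the siRNA-2 level only just, so the folds that use it are uncertain in size. Neither siRNA reached 1.5-fold against control: siRNA-1 was 1.45-fold higher and siRNA-2 1.47-fold lower. Between the WDR5 siRNAs the steps added to 2.13-fold.

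**Figure D2:**
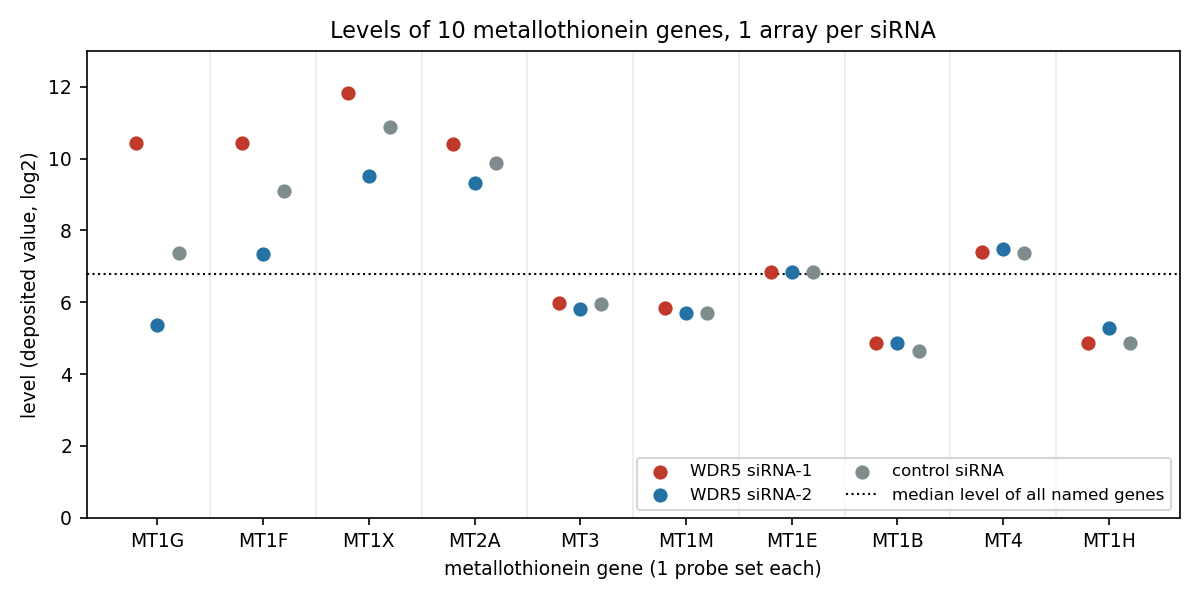
Log2 levels of the 10 metallothionein genes on the 3 arrays (siRNA-1 red, siRNA-2 blue, control grey), 1 point per array, ordered by the difference between the WDR5 siRNAs; the dotted line is the median level of all named genes, 6.78. MT1G, MT1F, MT1X and MT2A have the control point between the others, and the remaining 6 genes span at most 0.42.

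The remaining genes stayed within 1.5-fold in every comparison. MT1E, an MT1 gene that lies next to the pseudogene MT1L and near MT2A, had the same value, 6.85, on each array, as did MT1L at 3.86. ARL15 had the value of MT1E on each array too, and ASB5 that of MT1L. These tied values may therefore not be levels of the transcripts, and no lack of change is read from them. MT1M stood at 5.84 with siRNA-1 and 5.70 with siRNA-2, against 5.70 with control siRNA. MT1E and MT1M therefore each gave an exact tie between siRNA-2 and control.

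MT1H read 4.87 with siRNA-1 and 5.29 with siRNA-2, against 4.87 with control siRNA, so it was 1.34-fold higher with siRNA-2 than with either other array. This is the opposite direction to its neighbour MT1G, which adjoins it in the RefSeq order. MT1B, which adjoins MT1F, read 4.87 with siRNA-1 and 4.87 with siRNA-2, against 4.63 with control siRNA.

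MT3, the brain metallothionein, was at 5.99 with siRNA-1 and 5.82 with siRNA-2, against 5.96 with control siRNA. MT4, the epithelial gene at the far end of the cluster, was at 7.40 with siRNA-1 and 7.49 with siRNA-2, against 7.37 with control siRNA. Neither gene was set apart on any array. None of MT1B, MT1E, MT1H, MT1M, MT3 and MT4 exceeded the highest background row on any array, and 4 of the 10 genes (MT1B, MT1H, MT1M and MT3) had a mean under 6.78, and a level alone does not show whether these genes were above background.

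The values of the paralogs did not differ as a block. Along chromosome 16 the 4 genes that differed (MT2A, MT1F, MT1G and MT1X) were interspersed with MT1E, MT1M, MT1B and MT1H, which did not reach 1.5-fold. None of MT1E, MT1M, MT1B and MT1H exceeded the highest background row on any array, so an unchanged transcript and an undetected one cannot be told apart there. Whether MT1F, MT1G and MT1X read partly from the same transcripts was not tested, because probe sequences were not used here, and so the 3 rows may not be independent observations.

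Set against the control array, 3 of the 10 genes (MT1F, MT1G and MT1X) were at least 1.5-fold higher with siRNA-1 and 0 were lower, beside 1.55% of all named genes higher and 2.77% lower. With siRNA-2, 0 of the 10 were at least 1.5-fold higher and the same 3 genes were lower, beside 1.34% of all named genes higher and 2.37% lower. Both comparisons use the 1 control array and each shares an array with the contrast that chose the family, so these shares too are a description. The median log2 difference over the 10 genes was 0.15 for siRNA-1 over siRNA-2, 0.19 for siRNA-1 over control and -0.07 for siRNA-2 over control, where the median of all named genes was 0 in each. The medians are small because 6 of the 10 genes hardly differed.

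**Figure D3:**
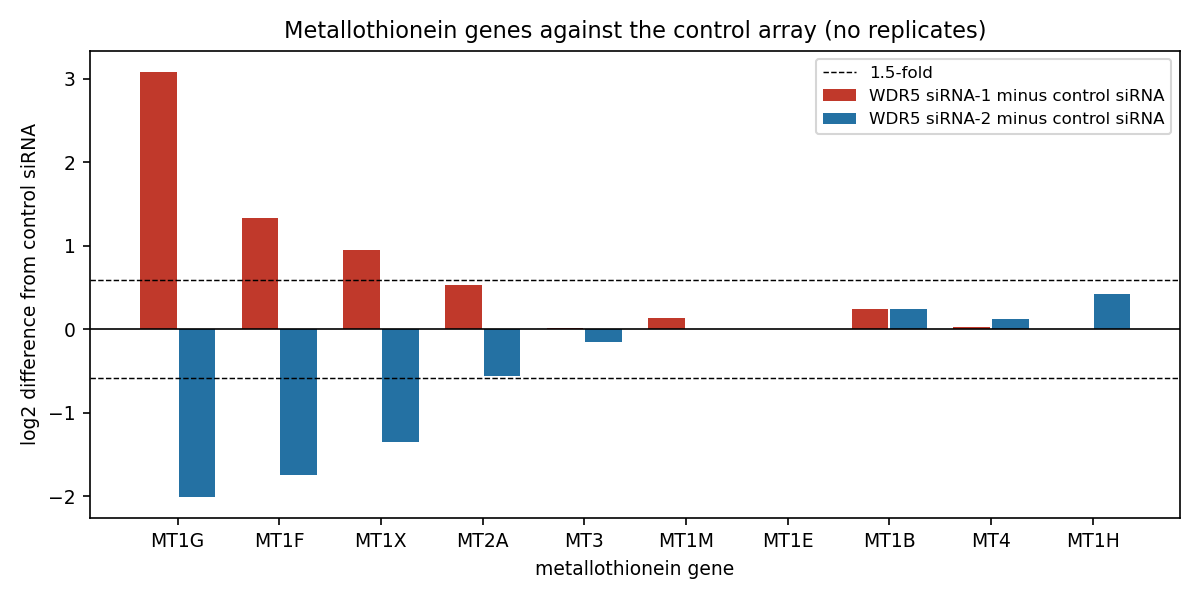
Log2 difference from the control array for each metallothionein gene, siRNA-1 in red and siRNA-2 in blue; bars start at 0 and the dashed lines mark 1.5-fold. MT1G reaches 3.08 with siRNA-1 and -2.001 with siRNA-2, while MT2A ends just inside the dashed lines on both sides.

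MT1G had the highest difference of all named genes for siRNA-1 over control, where MT1F was the 12th highest and MT1X the 58th. For siRNA-2 over control MT1G was the 2nd lowest, MT1F the 4th lowest and MT1X the 13th lowest. A step of at least 1.5-fold above control with siRNA-1 and at least 1.5-fold below it with siRNA-2 was found in 8 of 14884 genes, 0.0537%. MT1F, MT1G and MT1X were 3 of these 8. The pattern needs the WDR5 siRNAs to lie far apart, and the contrast between them chose the family. The ranks and the 3 of 8 are therefore a description, and nothing is read from them. The ranks and the place of MT1G and MT1F among the 8 rest on control and siRNA-2 levels within the range of the background rows. With values under 6.78 raised to that level, 6 genes kept the pattern, MT1F and MT1X among them, and MT1G did not (-0.58 for siRNA-2 over control). The other genes of the 8 were AP1AR, HIPK3, KIF27, SMAGP and UHMK1, of which KIF27 and SMAGP are named because they complete that short list, after their values were seen. The opposite pattern, below control with siRNA-1 and above it with siRNA-2, was found in 10 genes (0.0672%), with 0 metallothioneins.

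**Figure D4:**
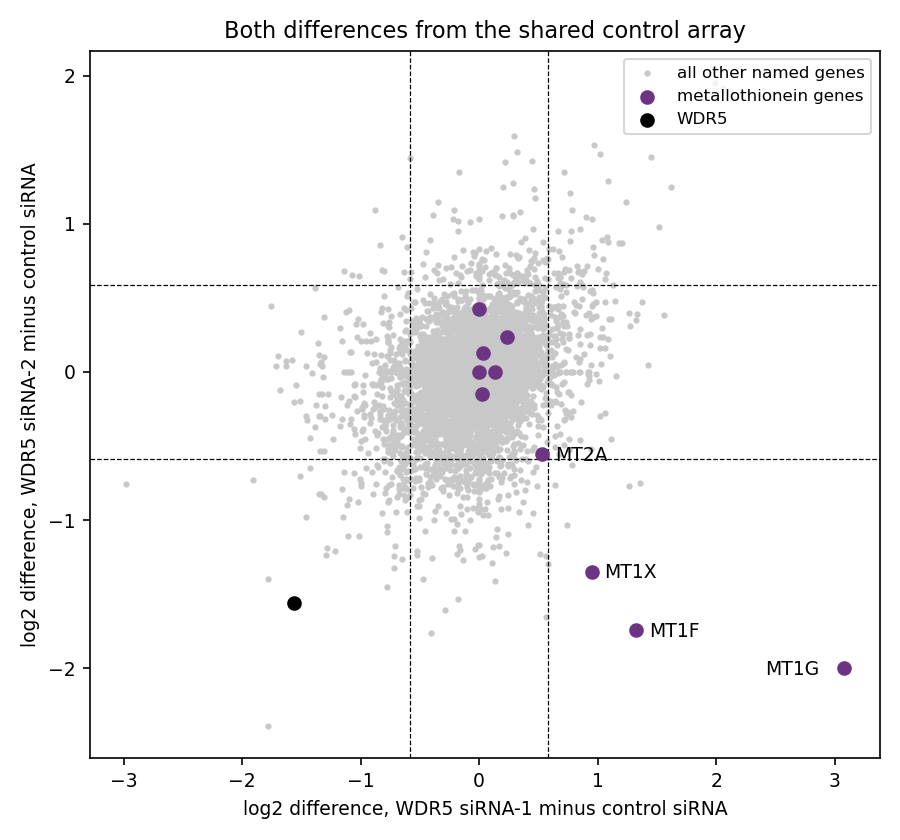
Log2 difference from control with siRNA-1 (horizontal) against that with siRNA-2 (vertical) for all 14884 named genes, 1 point per gene; both axes share the 1 control array. The dashed lines mark 1.5-fold. MT1G, MT1F and MT1X lie in the lower right corner, above control with siRNA-1 and below it with siRNA-2. Their place there is partly due to the contrast that chose the family. WDR5 lies at -1.56 on both axes.

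Genes with the most similar pattern were ranked by the Euclidean distance, over the 3 arrays, between their centred log2 values and the median centred profile of MT1F, MT1G, MT1X and MT2A (siRNA-1 1.27, siRNA-2 -1.41, control 0.07). The nearest was TMEM30A, a subunit of lipid flippases, at a distance of 0.47, and its levels were 10.69 with siRNA-1 and 8.47 with siRNA-2, against 10.12 with control siRNA. UHMK1, a kinase gene, was at a distance of 0.55 and stood at 10.57 with siRNA-1 and 8.46 with siRNA-2, against 9.21 with control siRNA. HIPK3, also a kinase gene, followed at 0.56, MOB1B, of the Hippo pathway, at 0.60 and AP1AR, an adaptor-associated gene, at 0.64. For each of these nearest genes the siRNA-2 level lay under the highest background row, 9.26, so the size of their differences is uncertain. MT1F and MT1X were each 0.28 from the profile, MT2A 1.13 and MT1G 1.78, the last because its differences were larger than the profile's. The profile was made from these metallothioneins, and as their median it had to lie near MT1F and MT1X. Their distances are therefore not compared with those of the other genes. A likeness over 3 arrays is a description of these arrays.

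The RNA levels of the 7 measured regulators of metallothionein transcription did not follow the order of MT1F, MT1G and MT1X. The activity of these regulators was not tested. MTF1, the metal-sensing activator, was at 9.37 with siRNA-1 and 9.36 with siRNA-2, against 9.14 with control siRNA, so it was 1.17-fold and 1.16-fold above control. Of 7 measured regulators out of 11 listed, 0 lay at least 1.5-fold higher with siRNA-1 than siRNA-2 and 1 lay lower, STAT3, a cytokine-activated transcription factor gene. STAT3 stood at 9.97 with siRNA-1 and 11.15 with siRNA-2, against 11.30 with control siRNA, the reverse of the metallothionein order between the WDR5 siRNAs. KEAP1, the inhibitor of NRF2, differed by 0.20 between the WDR5 siRNAs on the log2 scale and MTF2, a polycomb-associated protein gene, by -0.19.

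Zinc transporters, 24 of which were listed and which include the MTF1 target SLC30A1, were not analysed here. Among copper-handling genes, 0 of 9 measured (14 listed) reached 1.5-fold in any comparison. COMMD1, which acts in copper export, had a log2 difference of -0.39 between siRNA-1 and siRNA-2, MEMO1 one of -0.32 and COX11, a copper chaperone of cytochrome oxidase, one of 0.25. Iron-handling genes likewise had 0 of 4 measured (11 listed) past 1.5-fold, with FBXL5, the iron-sensing ligase subunit, at -0.44 and NCOA4, the ferritin receptor, at 0.13.

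Genes of stress pathways that can also raise metallothioneins were compared between the WDR5 siRNAs in the same way. Of all named genes, 2.63% were at least 1.5-fold higher with siRNA-1 than siRNA-2 and 2.80% lower. At these shares a list this short would hold few or no such genes, so nothing about the pathways is read from the counts. The same holds for the lists of regulators, metal-handling genes and chromosome 16 neighbours. Of 10 measured NRF2 targets and glutathione genes (17 listed), 0 reached 1.5-fold between them. SRXN1 (sulfiredoxin) differed by 0.54, TXN (thioredoxin) by -0.48 and TXNRD1 (thioredoxin reductase) by -0.40 on the log2 scale. Against control, TXN was 1.84-fold lower with siRNA-1 and SRXN1 1.63-fold lower with siRNA-2. The heat shock list had 0 of 8 measured genes (13 listed) past 1.5-fold between the WDR5 siRNAs, with HSPA1L at -0.49, HSPA1A at -0.12 and BAG3 at 0.09. Against control, 3 heat shock genes were at least 1.5-fold lower with siRNA-1 and 2 with siRNA-2; HSPA1A lay 1.73-fold below control with siRNA-1 and 1.59-fold with siRNA-2, and it shares near-identical sequence with HSPA1B.

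Of 10 measured glucocorticoid-responsive genes (11 listed), 1 exceeded its siRNA-2 level by at least 1.5-fold with siRNA-1. That gene was CRISPLD2, at 8.05 with siRNA-1 and 7.34 with siRNA-2, against 7.62 with control siRNA, an order like that of the metallothioneins on a smaller scale. All of its levels lay under the highest background row, 9.26, so the size of its differences is uncertain. DUSP1, a phosphatase gene that shuts off MAP kinases, had a log2 difference of 0.34 and SGK1, a kinase gene, of -0.33. Against control, PER1, a clock gene, lay 1.69-fold above it with siRNA-1 and 1.61-fold with siRNA-2, and ERRFI1, an inhibitor of EGF receptor signalling, was 1.65-fold lower with siRNA-1. PER1 and ERRFI1 are named as the genes of the list past 1.5-fold against control, after their values were seen.

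Among 7 measured hypoxia-responsive genes (12 listed), 1 passed 1.5-fold for siRNA-1 over siRNA-2. ANKRD37, an ankyrin repeat gene, was at 7.98 with siRNA-1 and 7.12 with siRNA-2, against 6.96 with control siRNA, so unlike the metallothioneins it was not below control with siRNA-2. Its levels too were all under the highest background row, 9.26. BNIP3, a mitophagy receptor gene, had a log2 difference of -0.53 and ADM, the adrenomedullin gene, of 0.21. The hypoxia-responsive genes as a list had a median of -0.06 between the WDR5 siRNAs.

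Of 6 measured genes listed as neighbours of the cluster on chromosome 16 (12 listed), 0 reached 1.5-fold between the WDR5 siRNAs. CPNE2 had a log2 difference of 0.48, NUDT21, a cleavage factor subunit gene, of 0.33 and OGFOD1 of -0.29. Against control, CPNE2 was 1.65-fold lower with siRNA-2. Between the WDR5 siRNAs, the largest difference among these neighbours was smaller than those of MT1G, MT1F, MT1X and MT2A. For MT1G, MT1F and MT1X that was fixed in advance, since they headed the contrast that chose the family, and nothing is read from it. In the same contrast, 2 of 7 measured adrenergic markers (9 listed) were at least 1.5-fold lower with siRNA-1: DBH, the noradrenaline-making enzyme gene, at -1.32 and CHGA, chromogranin A, at -1.20. Their part in the metallothionein differences was not tested.

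**Figure D5:**
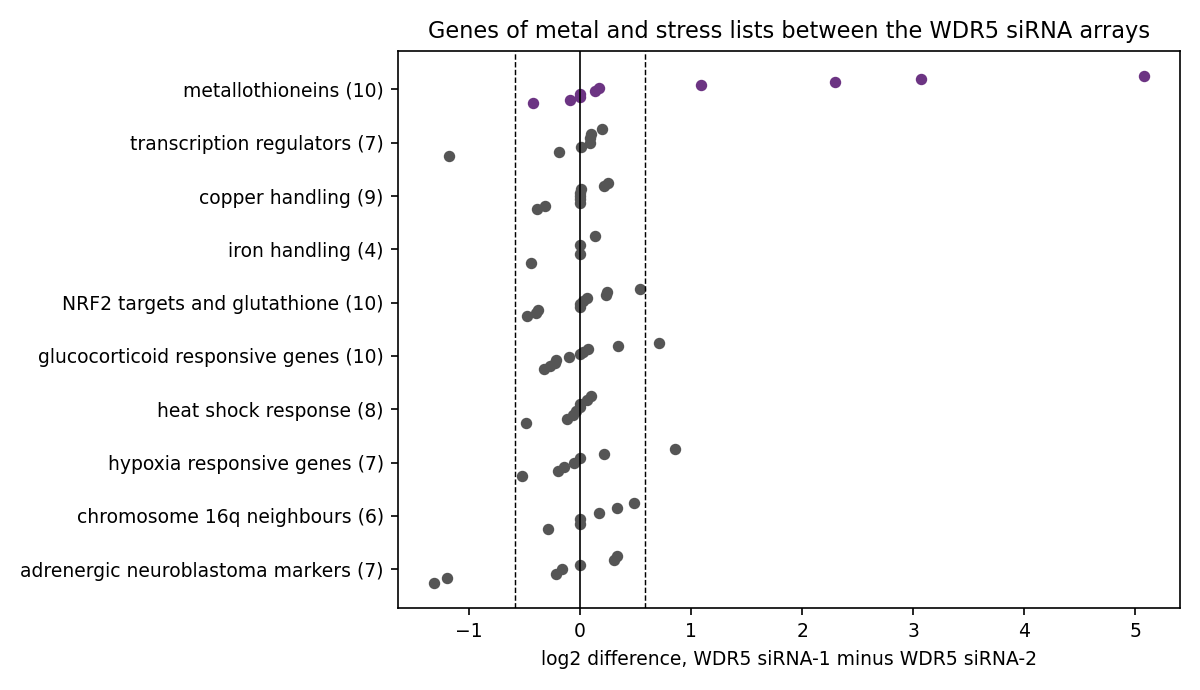
Log2 difference of siRNA-1 over siRNA-2 for every measured gene of the metallothioneins and of 9 other lists with at least 4 measured genes (number measured in brackets), 1 point per gene, spread vertically for visibility; dashed lines mark 1.5-fold. MT1X, MT1F and MT1G lie to the right of every other gene drawn, which was fixed in advance because this contrast chose the family. STAT3, DBH and CHGA lie left of the lower line.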

How the data were processed

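The authors deposited 1 table of levels, taken here as log2 because they run between 1.34 and 14.9, with 53617 probe sets and 1 column for each of 3 arrays; the table states no scale. For the log2 levels that the authors deposited, the submitters' processing notes name the tool MAS5 with no role; the background correction, normalization and probe summary are not given in the sources used here. Symbols came from GEO's platform annotation: 16098 had 1 symbol, 0 had several and 37519 had none, and the Entrez identifiers of all 16098 matched RefSeq. For genes with several probe sets (779) the one with the highest mean was used, giving 14884 genes. No filter on level was applied, since a gene could pass it through the array where it is high.

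Log2 differences between arrays were computed per gene with pandas 2.3.3, and a gene was called at 1.5-fold. With 1 array a group no p-value was computed. The counting was tried on simulated data with small independent noise and no exact ties, unlike these arrays. That checks the counting rule alone and says nothing about how reliable the calls are. The alternatives were quantile normalization, median centring, a floor at the median level (6.78), filters at the median and the 75th percentile (8.54), the mean of probe sets and a 2-fold threshold. The genes named are all 10 metallothioneins, WDR5, MTF1 and the 5 nearest in pattern. From each other list, up to 3 genes are named by the size of the difference between the WDR5 siRNAs. HAND2, PHOX2A, TH, LUM, PECAM1, the tied markers and MT1L are named as checks. ADRB3, AKAP4, ARL15 and ASB5 are named because they share a tied value, after their values were seen. Of the cell type lists, Schwann cells had 2 measured genes, fibroblasts 2, leukocytes 2 and endothelium 3, with 0 past 1.5-fold between the WDR5 siRNAs. The members and lists were chosen with earlier results of these data known. No genome build is named for the table, so positions are given for RefSeq promoters alone.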

Additional observations from a re-analysis of the deposited data

Results flagged for a closer look

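Each gene here lay above the control array with 1 WDR5 siRNA and below it with the other, with the WDR5 siRNAs at least 1.5-fold apart; with 1 array a group the difference was not tested. The log2 difference of siRNA-1 over siRNA-2 was 5.08 for MT1G, 3.07 for MT1F, 2.30 for MT1X and 1.09 for MT2A. It was 2.22 for TMEM30A, 2.11 for UHMK1, 2.03 for HIPK3, 1.88 for MOB1B and 1.78 for AP1AR, which were picked for their likeness to the metallothioneins and so had to show it. The glucocorticoid-responsive gene CRISPLD2 had 0.71. In the opposite direction, the adrenergic markers DBH and CHGA had -1.32 and -1.20.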

How the results depend on the processing

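No paired analysis was possible because each group was 1 array. Counts of called metallothioneins stayed within 1.5 times of those reported in all 42 recounts under the alternatives, which included recounts at the 2-fold threshold. A fall from 3 genes to 2 lies exactly at that limit and was counted as within it. Such a fall occurred with the floor, the filter at the 75th percentile and the 2-fold threshold. In each direction where 0 genes were called, every recount also gave 0. Of 162 recomputed log2 differences of single genes (the metallothioneins and WDR5), 161 kept their side of 1.5-fold. For many of them this was fixed in advance. The filters (21 differences at the median and 9 at the 75th percentile) only drop genes, and the mean of probe sets (33) leaves these genes as they were. The exception was MT1G for siRNA-2 over control, -0.58 with the floor at the median level against -2.001 as reported. The floor lifts its siRNA-2 level. The median over the metallothioneins did depend on which genes entered. For siRNA-1 over siRNA-2 it was 1.69 with the filter at the median (6 genes), 2.30 with the filter at the 75th percentile (3 genes) and 0 with the floor, against 0.15 as reported. For siRNA-1 over control it was 0.74, 0.95 and 0.015 under these settings, against 0.19, and for siRNA-2 over control -0.95 and -1.35 with the filters, against -0.07. The filter at the median drops 4 genes that were not called, and the filter at the 75th percentile also drops MT1G, MT1E and MT4, so these medians describe the genes kept. Quantile normalization and median centring moved no difference by more than 0.07. Taking the mean of probe sets changes nothing for genes with 1 probe set each.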
